A study of Mus musculus with 18 samples.

Results

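Early transposons (ETn) and their MusD relatives are mouse long terminal repeat (LTR) retrotransposons, represented here by 10 of 1365 repeat rows, namely those whose repeat name begins with ETnERV, MMETn, RLTRETN or ERVB7. Of these, 4 are internal parts (names ending in -int) and 6 are LTRs. All 10 carry the class LTR/ERVK, the betaretrovirus-like group of endogenous retroviruses. A row pools reads from the genomic copies that bear its name. How reads that fit several copies were counted is not stated in the sources used here.

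The libraries measured poly(A) RNA of mouse cells in which HSP90, a chaperone for many signalling and regulatory proteins, was or was not inhibited, to ask how the chaperone bears on endogenous retroviruses. There were 18 libraries in 6 groups of 3: embryonic stem cells (ESCs), neuronal progenitor cells (NPCs) and bone-marrow-derived macrophages, each treated with the HSP90 inhibitor NVP-AUY922 or left as control. ESCs received 100 nM, NPCs 50 nM and macrophages 500 nM of the inhibitor, in each case for 24 h. The ESCs (2i medium) and the NPCs (N2B27 medium with EGF and FGF) were of the 129S1/CASTEiJ background. The macrophages, grown out of bone marrow with M-CSF, were of the BALBC/C57BL6 background. Dose and, for macrophages, strain thus change with cell type, and their parts in a difference between cell types cannot be told apart. The labels do not say that replicates came from separate cultures or animals, so errors and p-values may measure technical spread only.

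ETn elements were named for their transcription in the early mouse embryo. They hold LTRs that start and end a transcript, but their internal part carries no intact retroviral genes, and MusD elements, which carry gag, pro and pol genes, supply the proteins with which both move. New ETn insertions are a recurrent source of spontaneous mutations in laboratory mice. In ESCs such elements are kept down by KRAB zinc finger proteins that recruit TRIM28 and the histone methyltransferase SETDB1.

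What is available is 1 authors' deposited table per cell type, holding for each repeat a base mean (the mean over the 6 libraries of reads divided by size factors), a log2 fold change between the groups, its standard error (SE, given after ±) and an adjusted p. Values of single libraries are not used here, and rows of cell type marker genes are not among the repeats, so the labelled cell types were not checked against markers. The table does not state whether treated or control cells are the numerator of the fold change. A negative value therefore means fewer reads in the numerator group than in the denominator group, and neither is called treated. A row was called when its adjusted p lay under 0.05. In bulk RNA, fewer cells that transcribe an element and less RNA of it per cell cannot be told apart.

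In ESCs the internal parts MMETn-int and ETnERV-int and the LTR ERVB7_1-LTR_MM differed between the groups by 5.82-fold to 7.71-fold, all on the negative side. The LTR RLTRETN_Mm differed by 3.01-fold on the same side, and the other 6 rows by under 2-fold. Of the 10 rows, 9 were negative and called, 0 were positive and called, and 1 did not pass. Among all 1132 ESC rows tested, 12% were negative and called and 10.2% were positive and called. The 10 rows had a median log2 fold change of -0.71, against 0.0019 over all rows tested. No row of the table had a lower log2 fold change than ETnERV-int, and MMETn-int was second from the bottom. Values this low were not particular to the family. Outside it, ERVB4_1C-LTR_Mm had -2.81 ± 0.10 and RLTR13G -2.76 ± 0.10 in the authors' deposited table, both lower than ERVB7_1-LTR_MM. 4 of the 10 rows lay beyond 1 on the log2 scale, against 3.18% of all rows tested.

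**Figure D1:**
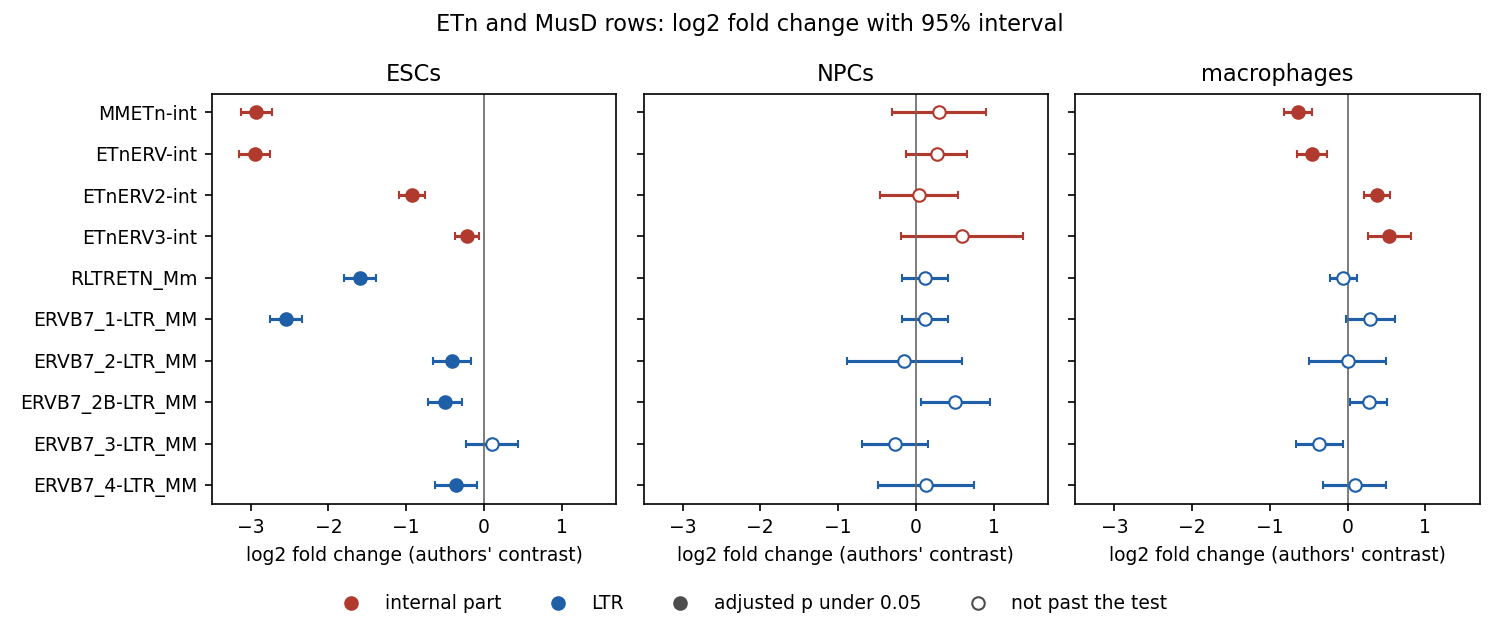
Log2 fold change of the 10 ETn and MusD rows (x axis, authors' contrast, numerator group not stated) with 95% intervals from the deposited standard errors, in ESCs, NPCs and macrophages; red marks internal parts, blue marks LTRs, and filled points passed an adjusted p of 0.05. The 9 filled points in ESCs all lie left of 0, none is filled in NPCs, and in macrophages 2 filled points lie on each side.

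MMETn-int is the internal part of the ETn elements themselves. The authors' deposited table for ESCs gave it a base mean of 81651 and a log2 fold change of -2.93 ± 0.10 (adjusted p 4.012e-186). With equal group sizes, this base mean and fold change imply means of about 18981 normalised reads in the numerator group and 144321 in the denominator group. The fold difference was 7.60, with a 95% interval of 6.64 to 8.71. ETnERV-int, by its name the internal part of an ETn-related endogenous retrovirus, stood in the authors' deposited table at -2.95 ± 0.10 (adjusted p 4.196e-178), from a base mean of 47472. Its implied means were 10896 in the numerator group and 84048 in the denominator group, a 7.71-fold difference (95% interval 6.71 to 8.87). These 2 rows together held most of the family's reads in ESCs, 54.0% for MMETn-int and 31.4% for ETnERV-int.

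The other 2 internal parts moved less. ETnERV2-int had a base mean of 4303, and the authors' deposited table put it at -0.93 ± 0.09 (adjusted p 2.368e-24). Its implied means were 2967 in the numerator group and 5639 in the denominator group, a 1.90-fold difference (95% interval 1.69 to 2.14). ETnERV3-int, with a similar base mean of 3803, was put by the authors' deposited table at only -0.22 ± 0.08 (adjusted p 0.0307). Its fold difference of 1.16 had a 95% interval of 1.04 to 1.29.

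Among the LTRs, which hold promoter and polyadenylation signal of an element, ERVB7_1-LTR_MM stood closest to the internal parts. From a base mean of 8974 it had -2.54 ± 0.10 (adjusted p 3.615e-129) in the authors' deposited table. Its implied means were 2631 in the numerator group and 15318 in the denominator group, a 5.82-fold difference (95% interval 5.05 to 6.71). RLTRETN_Mm, the LTR named for ETn, had -1.59 ± 0.10 (adjusted p 3.863e-50) in the authors' deposited table, from a base mean of 3361. Here the implied means were 1676 in the numerator group and 5046 in the denominator group, a 3.01-fold difference (95% interval 2.61 to 3.47).

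The remaining ERVB7 LTRs had smaller base means than the rows above, between 115 and 881, and differences of under 2-fold. For ESCs the authors' deposited table listed ERVB7_2B-LTR_MM at -0.50 ± 0.11 (adjusted p 1.164e-04), ERVB7_2-LTR_MM at -0.41 ± 0.12 (adjusted p 6.624e-03) and ERVB7_4-LTR_MM at -0.36 ± 0.14 (adjusted p 0.0461). ERVB7_3-LTR_MM, with the lowest base mean of the family at 115, was listed in the authors' deposited table at 0.10 ± 0.17 (adjusted p 0.762). Its 95% interval ran from -0.24 to 0.44.

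**Figure D2:**
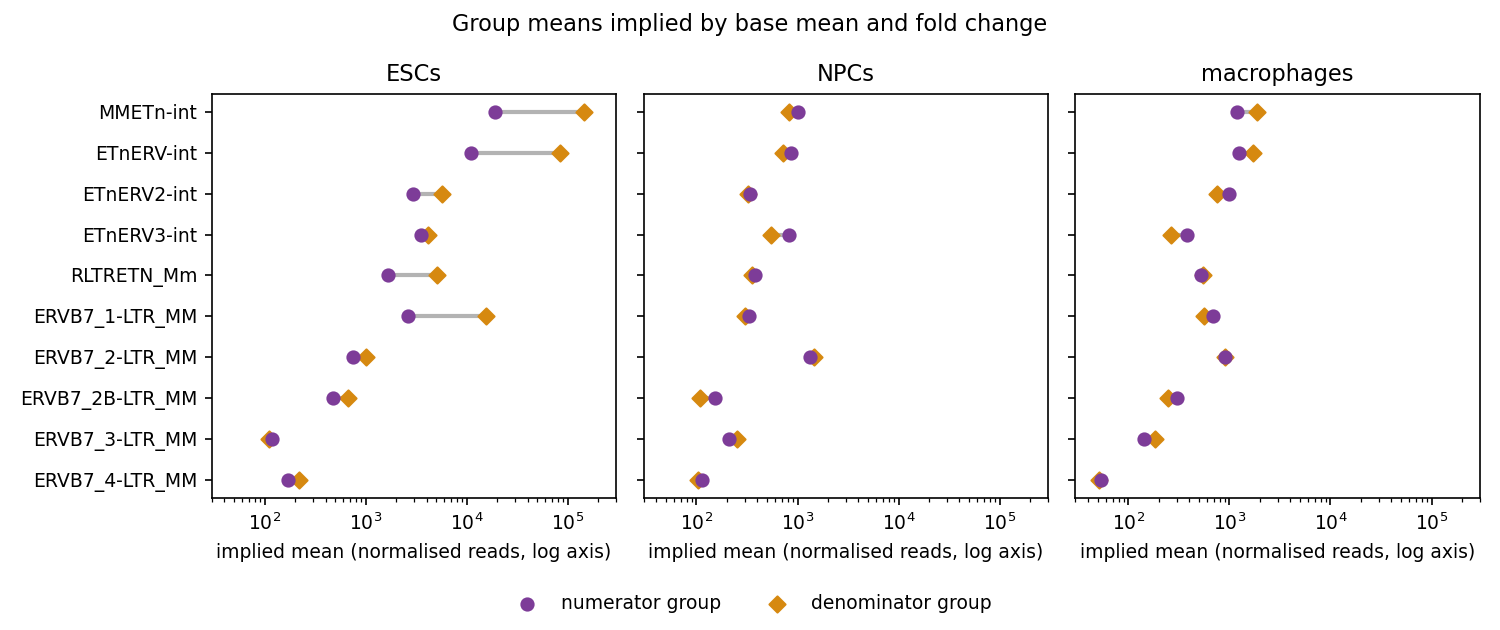
Group means implied by the deposited base mean and fold change (x axis, normalised reads, log axis) for each ETn and MusD row; circles are the numerator group and diamonds the denominator group of the authors' contrast, and the 3 tables were normalised separately. In ESCs the bars of MMETn-int, ETnERV-int, ERVB7_1-LTR_MM and RLTRETN_Mm are long, while in NPCs and macrophages the marks of each row lie close together.

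Whether family members differ from each other was judged with an interval of ±1.96 times the summed SEs of both rows, which is wide enough for any correlation between rows of the same libraries; these pairs were examined after the values were known. The intervals were not adjusted for the number of pairs, and pairs of rows outside the family were not computed in any cell type. The counts of pairs therefore have no background. In ESCs, 33 of the 45 pairs had an interval that left out 0. MMETn-int minus ETnERV-int was 0.02, with an interval of -0.38 to 0.42, so their order was not resolved. ETnERV-int minus ERVB7_1-LTR_MM was -0.41 (-0.81 to 0.00019), which also included 0. Below this group of 3, the order was resolved for RLTRETN_Mm and for ETnERV2-int: ERVB7_1-LTR_MM lay apart from RLTRETN_Mm, with RLTRETN_Mm minus ERVB7_1-LTR_MM at 0.95 (0.54 to 1.36), and ETnERV2-int minus RLTRETN_Mm was 0.66 (0.29 to 1.04). The internal part MMETn-int lay 1.34 below the LTR named for it, RLTRETN_Mm, with an interval of the difference from -1.74 to -0.94. ETnERV3-int, ERVB7_2-LTR_MM, ERVB7_2B-LTR_MM and ERVB7_4-LTR_MM could not be ordered among themselves. Of these rows, ERVB7_3-LTR_MM was resolved from ERVB7_2B-LTR_MM only, with ERVB7_2B-LTR_MM minus ERVB7_3-LTR_MM at -0.60 (-1.16 to -0.04). ERVB7_3-LTR_MM minus ERVB7_4-LTR_MM, at 0.46 (-0.15 to 1.07), was not resolved. The sources used here do not say how reads that fit several rows were assigned, so rows of near-identical sequence, and an LTR and the internal part next to it, may share reads.

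Summed over the 10 rows, the implied ESC means were 42187 normalised reads in the numerator group and 260461 in the denominator group, a log2 ratio of -2.63 or 6.17-fold. The 4 internal parts alone gave -2.71 and the 6 LTRs alone -1.94. These sums follow the rows with most reads and carry no error, since the rows come from the same libraries. Of the summed base means of all ERVK rows in ESCs, the family made up 18.0%.

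In NPCs 0 of the 10 rows passed the authors' DESeq2 test. Of all 1249 rows tested there, 11.8% were called on either side. At an unadjusted p under 0.05 stood 1 row, ERVB7_2B-LTR_MM, which the authors' deposited table listed at 0.51 ± 0.23 (adjusted p 0.145). Over the whole NPC table, 257 of 1365 rows had an unadjusted p under 0.05, so nothing is read from this count. The median of the 10 rows was 0.13, against 0.00089 over all rows tested.

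The internal parts that led in ESCs had small values in NPCs. For NPCs the authors' deposited table listed MMETn-int at 0.30 ± 0.31 (adjusted p 0.673), from a base mean of 920. ETnERV-int, with a base mean of 790, was listed in the authors' deposited table at 0.27 ± 0.20 (adjusted p 0.544). The 95% intervals were -0.31 to 0.91 for MMETn-int and -0.12 to 0.66 for ETnERV-int, so that whichever group is the numerator, fold differences over 1.87 and 1.58 lay outside them. In the authors' deposited table ETnERV3-int had the largest NPC estimate of the family, 0.60 ± 0.40 (adjusted p 0.462), while ETnERV2-int had 0.047 ± 0.26 (adjusted p 0.958). The interval of ETnERV3-int ran from -0.18 to 1.38, so that a difference of up to 2.61-fold lay within it.

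The NPC LTRs were measured with very unequal precision. Both RLTRETN_Mm (adjusted p 0.74) and ERVB7_1-LTR_MM (adjusted p 0.752) had 0.12 ± 0.15 in the authors' deposited table for NPCs. Their 95% intervals, -0.17 to 0.42 and -0.18 to 0.41, exclude differences as large as those of these LTRs in ESCs. The remaining NPC values in the authors' deposited table were -0.27 ± 0.21 for ERVB7_3-LTR_MM (adjusted p 0.576), -0.15 ± 0.38 for ERVB7_2-LTR_MM (adjusted p 0.911) and 0.13 ± 0.32 for ERVB7_4-LTR_MM (adjusted p 0.908). Of the 45 pairs of family rows, 0 had an interval of the difference that left out 0. The intervals were wider in NPCs, where the median SE of rows with a base mean of 50 or more was 0.21, against 0.11 in ESCs. The summed implied means were 5545 in the numerator group and 4993 in the denominator group, a log2 ratio of 0.15.

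In macrophages the internal parts split by side. MMETn-int and ETnERV-int were called negative, and ETnERV2-int and ETnERV3-int were called positive, while 6 LTRs did not pass. Negative calls thus made up 2 of 10 rows and positive calls 2 of 10, against 12.5% and 13.3% of all 1255 rows tested. These shares lie close to the background, and with so few rows nothing is read from the counts. Which group is the numerator does not bear on the split, since it turns all rows of a table together.

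Each of the 4 macrophage calls was small. For macrophages the authors' deposited table listed MMETn-int at -0.64 ± 0.09 (adjusted p 1.646e-10), from a base mean of 1524. This implies 1192 normalised reads in the numerator group and 1856 in the denominator group, a 1.56-fold difference (95% interval 1.37 to 1.77). ETnERV-int, with a base mean of 1489, was listed in the authors' deposited table at -0.45 ± 0.10 (adjusted p 4.470e-05). Its implied means were 1257 in the numerator group and 1721 in the denominator group. These are the same rows that led in ESCs.

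On the other side, ETnERV2-int had 0.38 ± 0.09 (adjusted p 1.114e-04) in the authors' deposited table, from a base mean of 875. Its implied means were 989 in the numerator group and 761 in the denominator group, a 1.30-fold difference. ETnERV3-int had 0.53 ± 0.14 (adjusted p 1.157e-03) in the authors' deposited table, from a base mean of 323. Its implied means were 382 in the numerator group and 264 in the denominator group, a 1.45-fold difference. MMETn-int minus ETnERV2-int was -1.02 with an interval of -1.37 to -0.66, and ETnERV-int minus ETnERV3-int was -0.99 with an interval of -1.46 to -0.52. Both intervals, built for any correlation, left out 0, as did those of 17 of the 45 pairs.

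In macrophages ERVB7_1-LTR_MM lay apart from ETnERV-int, and RLTRETN_Mm lay apart from MMETn-int as it had in ESCs. There the authors' deposited table listed ERVB7_1-LTR_MM at 0.29 ± 0.16 (adjusted p 0.186) and RLTRETN_Mm at -0.053 ± 0.09 (adjusted p 0.751). ETnERV-int minus ERVB7_1-LTR_MM was -0.74 (-1.25 to -0.23) in macrophages. In ESCs this difference lay on the same side, at -0.41 (-0.81 to 0.00019). Whether the difference changes between the cell types was not tested. MMETn-int minus RLTRETN_Mm was -0.59 (-0.95 to -0.22). Just short of a call in the authors' deposited table were ERVB7_2B-LTR_MM with 0.27 ± 0.12 (p 0.0248, adjusted p 0.0849) and ERVB7_3-LTR_MM with -0.36 ± 0.15 (p 0.017, adjusted p 0.0631). Far from a call in the authors' deposited table were ERVB7_4-LTR_MM with 0.092 ± 0.21 (adjusted p 0.809) and ERVB7_2-LTR_MM with 0.00064 ± 0.25 (adjusted p 0.999). Summed over the family, positive and negative rows nearly cancelled, with implied means of 6441 in the numerator group and 7103 in the denominator group and a log2 ratio of -0.14.

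**Figure D3:**
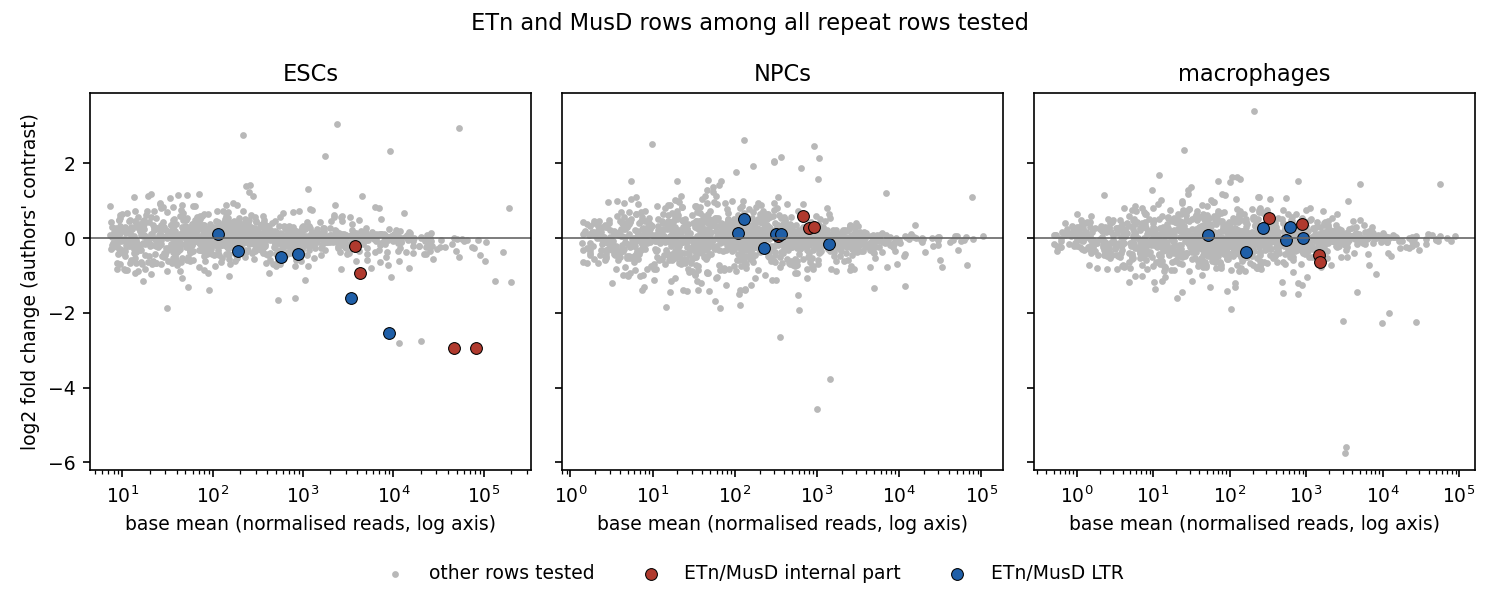
Log2 fold change (y axis, authors' contrast) against base mean (x axis, normalised reads, log axis) of every repeat row tested in ESCs, NPCs and macrophages, with ETn and MusD internal parts in red and LTRs in blue. In ESCs 4 family rows lie below -1, while all 10 lie between -0.27 and 0.60 in NPCs and between -0.64 and 0.53 in macrophages.

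The family's share of repeat reads also differed between the tables, which were normalised separately, so that shares and not base means are set side by side. The 10 rows made up 3.94% of the summed base means of all repeat rows in ESCs, 0.253% in NPCs and 0.341% in macrophages. Of ERVK rows alone they made up 18.0%, 2.50% and 3.27%, in the same order. These shares pool both groups of a cell type, and in ESCs, where the summed family means of the groups differ 6.17-fold, they describe neither group by itself. In ESCs MMETn-int held the most family reads. The row with the most family reads in NPCs was ERVB7_2-LTR_MM with 26.5%, and in macrophages MMETn-int and ETnERV-int held 22.5% and 22.0%, an order that turns in the numerator group, with implied means of 1192 and 1257. Reads were not divided by length, so these shares describe where reads fell and not levels per element. No test was made of the shares.

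The contrast itself was compared between cell types row by row: the log2 fold change of 1 table minus that of the other, over the root of the summed squared SEs, with p two-sided from the normal distribution, Benjamini-Hochberg adjusted over all rows tested in both tables. No library enters more than 1 cell type. With the tables taken as oriented alike, 7 of the 10 rows differed between ESCs and macrophages, against 23.7% of all 1124 rows. Between ESCs and NPCs 6 of the 10 differed, against 12.6% of 1126 rows. NPCs and macrophages differed in 2 of the 10 rows, against 12.4% of 1222. All 13 differences that involve ESCs were negative, that is, the ESC value was the lower.

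The largest of these differences belonged to the same 3 rows as in ESCs alone. ERVB7_1-LTR_MM had a difference of -2.83 ± 0.19 from macrophages (adjusted p 4.807e-47) and -2.66 ± 0.18 from NPCs (adjusted p 7.697e-45). ETnERV-int differed by -2.50 ± 0.14 from macrophages (adjusted p 4.877e-66) and by -3.22 ± 0.23 from NPCs (adjusted p 1.212e-43). MMETn-int differed by -2.29 ± 0.14 from macrophages (adjusted p 1.965e-60) and by -3.23 ± 0.32 from NPCs (adjusted p 4.656e-21). RLTRETN_Mm followed with -1.54 ± 0.14 and -1.71 ± 0.18, from macrophages and NPCs in that order.

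Since no source says that the tables share an orientation, each difference was also computed with the sign of the second table turned. MMETn-int, ETnERV-int, ETnERV2-int, RLTRETN_Mm and ERVB7_1-LTR_MM still had the lower value in ESCs and passed in both comparisons, so for these 5 rows the call does not rest on the orientation. The share of all rows that passed in both orientations was not computed. It cannot exceed the share with the tables oriented alike, 23.7% for ESCs against macrophages and 12.6% for ESCs against NPCs. With the sign turned the smallest difference among them was that of ETnERV2-int from macrophages, -0.55 ± 0.12 (adjusted p 6.976e-05). ETnERV3-int and ERVB7_2B-LTR_MM passed against macrophages, and ERVB7_2B-LTR_MM against NPCs, only when the tables were taken as oriented alike. Between NPCs and macrophages no row passed in both orientations. MMETn-int and ETnERV-int passed as oriented alike, with 0.94 ± 0.32 and 0.72 ± 0.22 (adjusted p 0.0335 and 0.0144), and ETnERV3-int and ERVB7_2B-LTR_MM with the sign turned, with 1.13 ± 0.42 and 0.78 ± 0.26 (adjusted p 0.0392 and 0.0149). With the sign turned, the shares of all rows that differed were 27.9% for ESCs against macrophages, 16.2% for ESCs against NPCs and 19.9% for NPCs against macrophages.

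**Figure D4:**
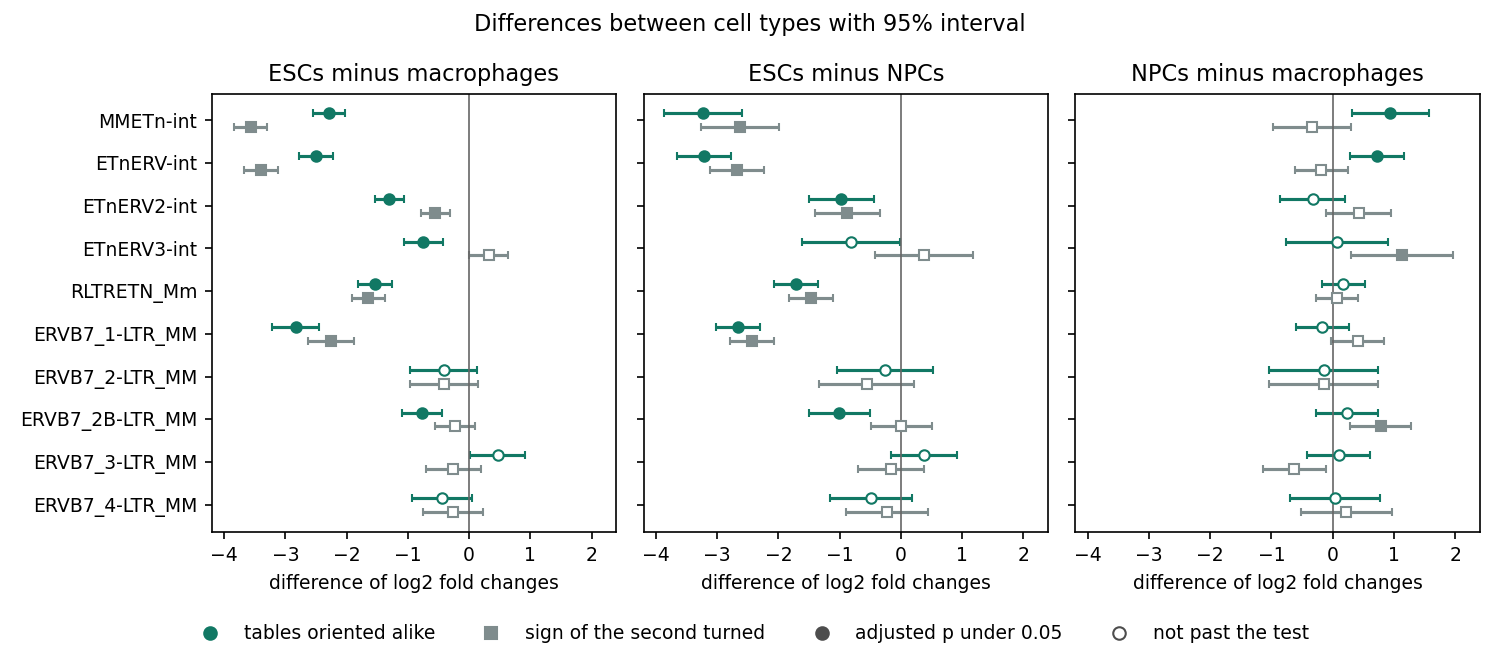
Difference of the log2 fold changes between cell types (x axis, first minus second named) with 95% intervals for the 10 ETn and MusD rows; circles take the tables as oriented alike, squares turn the sign of the second, and filled marks passed an adjusted p of 0.05. In both panels with ESCs, 5 rows have a filled circle and a filled square left of 0, and in the NPC panel against macrophages no row has both filled.

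The precision of single rows was set beside that of other rows with a base mean within a factor of 2. ERVB7_2-LTR_MM was imprecise in every table. Its SE was 1.33 times the median of such rows in ESCs, 2.07 times in NPCs and 3.01 times in macrophages, above 98.6%, 99.5% and 98.9% of them. In ESCs the rows with the largest fold differences had higher ratios still. These were 1.48 for ERVB7_1-LTR_MM, 1.41 for ETnERV-int, 1.38 for RLTRETN_Mm and 1.37 for MMETn-int, and 8 of the 10 ESC ratios lay above 1. In macrophages ERVB7_1-LTR_MM had a ratio of 1.77. In NPCs ETnERV3-int had an SE 2.17 times the median of the 225 rows near its base mean, larger than that of any of them, and MMETn-int one of 1.71 times. At a given base mean a larger SE goes with a larger spread between libraries of a group, and values of single libraries were not used to see which library it comes from. RLTRETN_Mm and ERVB7_1-LTR_MM in NPCs went the other way, with 0.77 and 0.76 times the median. Over all rows with a base mean of 50 or more the median SE was 0.11 in ESCs, 0.21 in NPCs and 0.11 in macrophages.

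**Figure D5:**
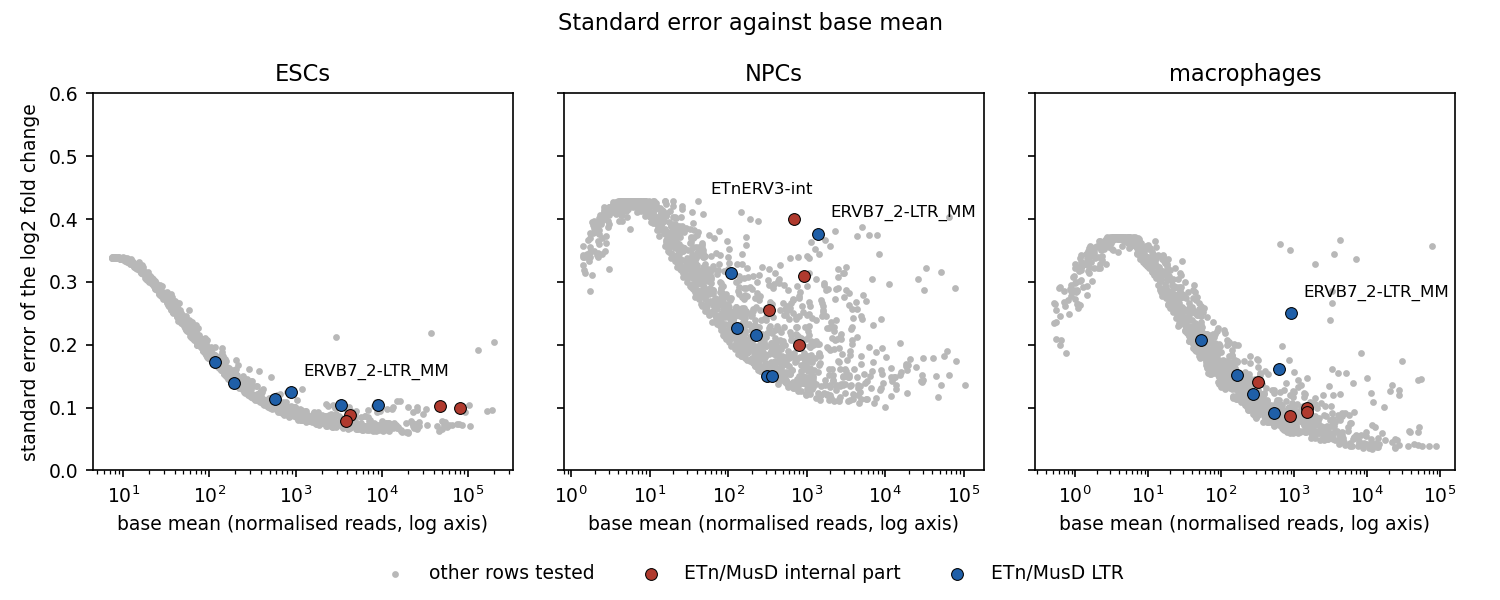
Standard error of the log2 fold change (y axis, log2 units) against base mean (x axis, normalised reads, log axis) for all rows tested, with ETn and MusD internal parts in red and LTRs in blue. ERVB7_2-LTR_MM lies above the bulk of rows in each panel, by a factor of 3.01 over the median of rows of like base mean in macrophages, and ETnERV3-int does so in NPCs.

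Outside the family, the rows whose 3 values lay nearest to those of ETnERV-int and MMETn-int were the same pair of ERVK LTRs, RLTR13G and ERVB4_1C-LTR_Mm. Nearness was the Euclidean distance over the log2 fold changes of the 3 tables, among 716 rows tested with a base mean of at least 50 in each. From ETnERV-int, RLTR13G lay at a distance of 0.20, about as near as MMETn-int at 0.19. RLTR13G had, by the authors' deposited table of each cell type, -2.76 ± 0.10 in ESCs, 0.29 ± 0.21 in NPCs and -0.49 ± 0.12 in macrophages. ERVB4_1C-LTR_Mm had -2.81 ± 0.10, 0.52 ± 0.19 and -0.78 ± 0.12 in the authors' deposited table, in the same order, at distances of 0.43 from ETnERV-int and 0.28 from MMETn-int. The third row outside the family, MMERVK9C_I-int, came only at 1.97 from ETnERV-int, and the fourth, B2_Mm1t, at 1.99. ERVB7_1-LTR_MM, the nearest LTR of the family, lay at 0.86 from ETnERV-int. Rows that lie close may hold shared reads, and the measure rests on 3 comparisons.

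ETnERV2-int and RLTRETN_Mm had other neighbours. Nearest to ETnERV2-int outside the family were MamGypLTR1b at 0.22, RLTR9E at 0.31, ORR1A0-int at 0.41 and LTR37A at 0.45. Within the family its nearest row, ERVB7_2B-LTR_MM, lay at 0.64. For RLTRETN_Mm these were MMERVK9C_I-int at 0.60, MamGypLTR1b at 0.77, X7A_LINE at 0.80 and BGLII at 0.85, against 0.79 for ETnERV2-int within the family. Only MMERVK9C_I-int, at -1.03 ± 0.09 in the authors' deposited table for ESCs, lay beyond -1 among these 7 rows.

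Other ERVK elements were called on both sides in ESCs. Of 262 other ERVK rows tested in ESCs, 58 were called positive and 49 negative, with a median of 0.0096. The row with the smallest adjusted p is said to lead a list. IAP elements, ERVK retrotransposons that still move in mice, had 15 positive and 1 negative of 25 and a median of 0.36, led in the authors' deposited table by IAP1-MM_I-int at 1.32 ± 0.09. The MERVK10C internal parts and RLTR10 LTRs had 6 positive and 0 negative of 13 and a median of 0.18, led by RLTR10-int at 0.82 ± 0.07 in the authors' deposited table. ERVB4, another betaretrovirus-like group, had 1 positive and 5 negative of 8 and a median of -0.40, led by ERVB4_1C-LTR_Mm.

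Outside ESCs the same lists were called on both sides, apart from MERVK10C and RLTR10 in NPCs. In NPCs, IAP rows had 10 positive and 1 negative calls of 25 and ERVB4 rows 3 and 1 of 9, led by ERVB4_1-I_MM at 2.05 ± 0.21 in the authors' deposited table. MERVK10C and RLTR10 rows had 0 and 2 of 13 there, led by RLTR10D at -1.13 ± 0.22 in the authors' deposited table. Other ERVK rows had 28 and 23 of 266, led by RNERVK23-int. Over all 1249 NPC rows tested, 62 were called positive and 85 negative. In macrophages the counts were 7 positive and 6 negative of 25 for IAP, 2 and 4 of 9 for ERVB4, 3 and 1 of 13 for MERVK10C and RLTR10, and 47 and 51 of 267 for other ERVK rows. The rows with the smallest adjusted p there were IAPEz-int at 1.45 ± 0.14, ERVB4_1C-LTR_Mm, RLTR10B at -0.79 ± 0.11 and RNERVK23-int at -5.59 ± 0.29 in the authors' deposited table. These counts were not tested against those of the family.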

How the data were processed

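Poly(A) RNA of 18 libraries was sequenced with a stranded kit, per the labels' protocols. The submitters' processing notes name build mm10 and the tools featureCounts, DESeq2, deepTools, Bowtie2, TopHat2 (2.0.13) and Trim Galore, without saying what each was used for. Per the file headers, the 3 deposited tables hold DESeq2 results. The base mean is a signal that the authors made from reads divided by size factors. The log2 fold change, with a standard error on the same scale, is the authors' estimate for the contrast of the groups. The authors' Wald statistic is a score, the log2 fold change over its standard error. Each p-value, raw or adjusted, is used as deposited. The deposited adjusted p-values equalled a Benjamini-Hochberg adjustment over all 1132 (ESCs), 1249 (NPCs) and 1255 (macrophages) rows that carry one, within a relative 1e-06. Total reads per library are not given in the sources used here, so depth is unknown; base means stand in for it. Rows with a base mean under 1 reached absolute log2 fold changes of no more than 0.25, 0.37 and 0.42 in ESCs, NPCs and macrophages, as shrunken estimates would; whether the authors shrank them is not stated, so rows of few reads may lie nearer 0, also in differences between tables.

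Because the tables hold the authors' comparison, the branch of the plan for such tables was used and no count model was fitted. Computed here were 95% intervals, the group means implied by base mean and fold change for equal groups, and the differences between cell types. The tools were Python 3.11.15, numpy 2.4.6, pandas 2.3.3, scipy 1.17.1 and matplotlib 3.10.9. The intervals and differences take the deposited standard errors as given. Whether these errors match the true spread of the estimates was not tested. The members and lists were chosen with earlier results of these data known. Named are all 10 family rows, the 4 rows outside the family nearest to each of 4 members, and the row with the smallest adjusted p of each list. Alternatives were other thresholds (0.01 and 0.1), Benjamini-Yekutieli adjustment, a base mean of at least 50, centring, a test against an absolute log2 fold change of 0.5, and turned signs.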

Additional observations from a re-analysis of the deposited data

Results flagged for a closer look

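A test of the difference between cell types picked out 15 results, with the tables taken as oriented alike and p adjusted over all rows. The differences of the log2 fold changes, ESCs minus macrophages, were -2.29 for MMETn-int, -2.50 for ETnERV-int, -1.30 for ETnERV2-int, -0.75 for ETnERV3-int, -1.54 for RLTRETN_Mm, -2.83 for ERVB7_1-LTR_MM and -0.77 for ERVB7_2B-LTR_MM. For ESCs minus NPCs they were -3.23 for MMETn-int, -3.22 for ETnERV-int, -0.97 for ETnERV2-int, -1.71 for RLTRETN_Mm, -2.66 for ERVB7_1-LTR_MM and -1.01 for ERVB7_2B-LTR_MM. For NPCs minus macrophages they were 0.94 for MMETn-int and 0.72 for ETnERV-int. ETnERV3-int and ERVB7_2B-LTR_MM in the comparisons with ESCs, and both results of NPCs against macrophages, did not pass with the sign of the second table turned. Dose and, against macrophages, strain differ along with the cell type and cannot be told apart from it.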

How the results depend on the processing

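The ESC count of 9 negative rows was 7 at an adjusted p under 0.01, 6 with Benjamini-Yekutieli adjustment, and 9 with a base mean of at least 50, with centring and at an adjusted p under 0.1. Against an absolute log2 fold change of 0.5 it was 5, namely MMETn-int, ETnERV-int, ETnERV2-int, RLTRETN_Mm and ERVB7_1-LTR_MM, and the macrophage counts of 2 positive and 2 negative rows were 0 and 0; a stricter null makes fewer calls by construction. In macrophages ERVB7_3-LTR_MM joined the negative calls, making 3, with a base mean of at least 50, where fewer rows are adjusted over. None of the 10 family rows was called in NPCs under any of these settings. Between NPCs and macrophages the count of 2 differing rows was 0 at an adjusted p under 0.01. The shares of all rows called under these other settings were not computed, so these counts are not set against a background. Centring changed no call of the 10 rows in any table. The summed log2 ratio of the family in ESCs was -2.71, -1.94 and -2.32 for internal parts only, LTRs only and without the row of the largest base mean. In NPCs, at 0.15 for all rows, it was 0.33, -0.042 and 0.26, and in macrophages, at -0.14, it was -0.27, 0.067 and 0.00053, in the same order. The sign of these sums outside ESCs thus depends on the rows taken in; the cause was not tested. No paired analysis was possible because the tables hold no values of single libraries, and for the same reason no library could be left out.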
